A study of Mus musculus with 6 samples.

Results

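The platelet adhesion receptors studied here are the 8 genes Itga2b, Itgb3, Gp1ba, Gp1bb, Gp5, Gp9, Gp6 and Selp, taken by name and set against the 18193 genes that the array annotation pairs with a single-gene probe set. Their expression was compared in megakaryocyte progenitors (MkP), blood precursors committed to forming megakaryocytes, the parent cells of platelets. Fetal liver MkP from embryos at E13.5 (3 arrays) were set against bone marrow MkP from adult mice aged 12 to 18 weeks (3 arrays), all from wild type C57BL/6 mice. Both were sorted as negative for lineage markers and Sca-1 and positive for c-kit, CD150 and CD41, so that every array came from cells chosen for the protein of Itga2b, which is CD41. No number of animals or embryos is given for any of these biological replicates, so the p-values measure the spread between these samples. Of the 8 genes, 7 had a probe set of their own, 11 probe sets in all. The expression of Gp1ba was not analysed here. A further probe set is annotated to both Septin5 and Gp1bb and was kept apart.

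Platelets stop bleeding by holding on to an injured vessel wall and to each other, and each step has its receptor. The GPIb-IX-V complex, built from the products of Gp1ba, Gp1bb, Gp9 and Gp5, catches von Willebrand factor under flow. Glycoprotein VI, encoded by Gp6, binds collagen and signals through the Fc receptor gamma chain. Integrin alphaIIbbeta3, made of the chains encoded by Itga2b and Itgb3, binds fibrinogen once it is activated and links platelets together. P-selectin, encoded by Selp, is stored in alpha granules and in endothelial cells and tethers leukocytes when it reaches the surface. The genes of these receptors are classical targets of GATA and ETS transcription factors in megakaryocytes.

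Promoter sequence was set out for Selp, the gene with 2 of 3 probe sets past the test, and for Itga2b and Gp5, whose probe sets did not pass it, so that the letters before their starts can be compared. Each run holds the 250 bases before the RefSeq transcript start in GRCm38.p6, written 5′ to 3′ on the gene's strand. Capitals mark matches on either strand to a GATA word, which is AGATAA or ends in G as AGATAG, or begins with T as TGATAA and as TGATAG, or to an ETS word, which is CAGGAA or with a second C is CCGGAA. The stretches are chr1:164115014-164115263 on the plus strand for Selp, chr11:102469884-102470133 on the minus strand for Itga2b and chr16:30310782-30311031 on the minus strand for Gp5.
Selp: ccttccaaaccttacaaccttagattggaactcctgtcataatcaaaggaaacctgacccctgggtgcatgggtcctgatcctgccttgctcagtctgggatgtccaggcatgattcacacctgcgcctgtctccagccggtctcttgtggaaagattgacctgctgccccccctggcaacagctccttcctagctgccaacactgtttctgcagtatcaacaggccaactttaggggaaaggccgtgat
Itga2b: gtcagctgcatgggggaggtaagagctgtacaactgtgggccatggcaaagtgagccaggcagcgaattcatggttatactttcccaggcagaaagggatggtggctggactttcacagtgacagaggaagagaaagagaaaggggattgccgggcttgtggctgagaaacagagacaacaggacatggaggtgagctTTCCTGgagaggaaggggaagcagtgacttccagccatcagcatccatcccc
Gp5: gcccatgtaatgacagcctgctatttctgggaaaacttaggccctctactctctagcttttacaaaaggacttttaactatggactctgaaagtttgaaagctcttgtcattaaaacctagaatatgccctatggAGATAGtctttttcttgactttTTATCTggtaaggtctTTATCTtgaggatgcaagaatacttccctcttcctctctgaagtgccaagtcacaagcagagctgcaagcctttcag

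The Selp stretch held none of the 6 words. The Itga2b stretch held 1 ETS word, CAGGAA on the reverse strand, from 52 to 47 bases before the start. The Gp5 stretch held 3 GATA words, among them AGATAA on the reverse strand from 93 to 88 and from 77 to 72 bases before the start. Of the 7 receptor genes with a promoter entry, 4 had a GATA word (Gp1ba, Gp1bb, Gp5 and Gp6) and 2 an ETS word (Itga2b and Gp1ba). Gp9, whose probe set did not pass the test, held none of the words, as did Selp. The Gp9 stretch, chr6:87777820-87778069 on the plus strand, lies inside the annotated gene (87776131 to 87779786). Bases before that span were not examined for Gp9. The promoter of Itgb3 was not examined here. Over all 32851 promoters of that table, 26.5% had one of these GATA words and 35.1% one of these ETS words. These are matches of letters only, and a stretch without a match says nothing about whether a factor acts there.

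Across the series, Pearson's r of log2 signals over the 27022 probe sets tested was 0.922 to 0.954 among fetal liver arrays, 0.874 to 0.898 among bone marrow arrays and 0.831 to 0.873 between tissues. The median signal lay between 62.8 and 65.5 in fetal liver and between 74.1 and 80.2 in bone marrow (two-sided exact permutation p = 0.1, the smallest that 3 against 3 arrays allow). A signal was called above background when it exceeded the highest of 27 bacterial control probe sets on its array, which lay between 22.2 and 35.1. Among the sort antigens, Kit averaged 870 ± 256 in fetal liver and 1298 ± 440 in bone marrow (SD, n = 3 each, limma adjusted p = 0.419). Slamf1, which encodes CD150, averaged 775 in fetal liver and 643 in bone marrow (limma adjusted p = 0.698). Probe sets entered the test when their mean log2 signal was above the 40th percentile, and the test was limma with Benjamini-Hochberg adjustment over all 27022 of them, at a threshold of 0.05.

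Selp was the only one of the 6 tested receptor genes past this threshold, and it was lower in fetal liver MkP. Of the 10 receptor probe sets that entered the test, 2 fell, both of Selp, and 0 rose. Over all probe sets tested, 5.06% were called, with 3.28% lower and 1.78% higher. Over genes by their brightest probe set, 6.36% were called. No receptor probe set was called higher by limma under any of the 21 alternatives in processing. In bulk RNA of sorted cells, fewer cells of a type and less RNA per cell cannot be told apart.

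Selp lies on chromosome 1 (164115264 to 164150026 in GRCm38.p6). Its brightest probe set, 1420558_at, gave signals of 71.4, 40.6 and 40.5 on the fetal liver arrays and of 325, 793 and 1089 on the bone marrow arrays. Every marrow value lay above every fetal liver value, and all 6 were above background. The log2 change was -3.66 ± 0.54 (SE, limma adjusted p = 0.00342), with a 95% interval of -4.85 to -2.48. On this scale the signal was 12.7-fold lower in fetal liver. The change was past the threshold in 20 of 21 alternatives. The exception took the Actb ratio of 5′ to 3′ probe sets as covariate and gave a change of -4.29 (adjusted p = 0.135). That ratio lay between 0.892 and 1.02 on the fetal liver arrays and between 1.06 and 1.13 on the bone marrow arrays, without overlap, and its part in the result was not otherwise tested.

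The second Selp probe set, 1449906_at, gave 95, 30.1 and 44.8 in fetal liver and 207, 753 and 496 in bone marrow. These groups did not overlap either. The change was -3.00 ± 0.61 (SE, limma adjusted p = 0.0184). This call was lost without bone marrow replicate 2 or 3 and without fetal liver replicate 2 or 3 (adjusted p = 0.0656, 0.0612, 0.0723 and 0.0704), with changes between -2.59 and -2.92. It was lost as well without a trend in the variance (adjusted p = 0.0562) and with the Actb covariate (adjusted p = 0.234).

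The third, 1440173_x_at, is of a type that may bind related transcripts, and its groups overlapped. It gave 444, 7.51 and 24.0 in fetal liver and 96.4, 511 and 235 in bone marrow. Fetal liver replicate 1 stood at the level of the marrow arrays, whereas replicates 2 and 3 were not above background. Its change was -2.20 ± 1.18 (SE, limma adjusted p = 0.338), and with 1 array left out it lay between -3.78 without fetal liver replicate 1 (adjusted p = 0.041) and -1.07 without fetal liver replicate 2 (adjusted p = 0.731). The other 4 such fits gave -1.62 to -2.81, none past the threshold. Fetal liver replicate 1 was also the highest of the fetal liver arrays on the other Selp probe sets.

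**Figure D1:**
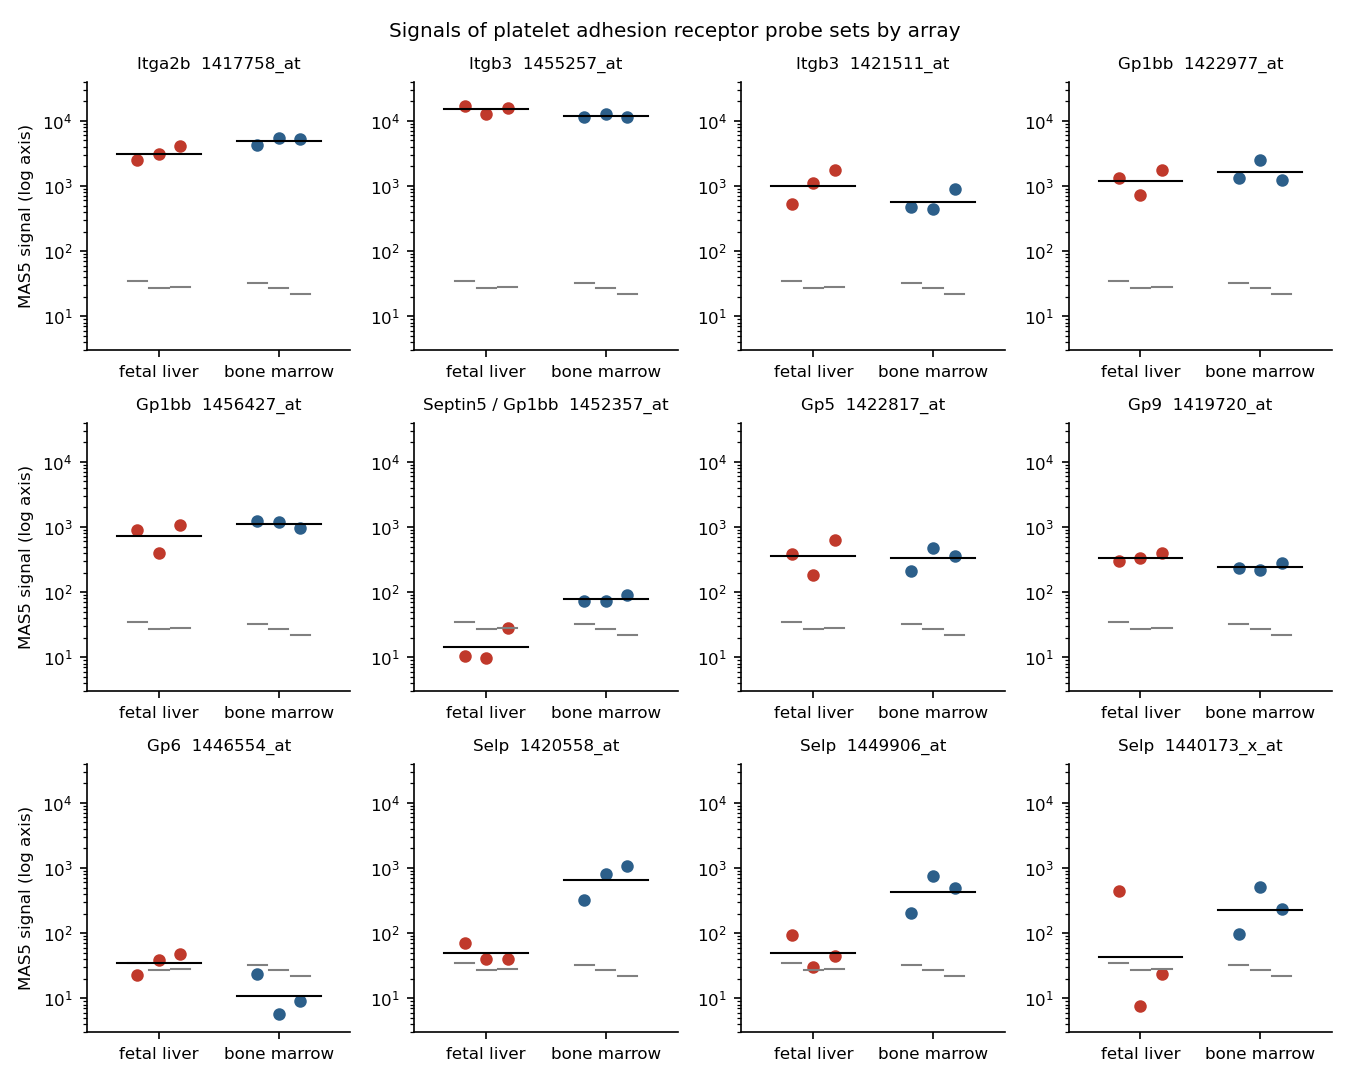
MAS5 signal (log axis) of each probe set of the receptor genes on the fetal liver (red, left) and bone marrow (blue, right) arrays, with the 3 replicates of a tissue from left to right as 1, 2 and 3. Black bars are geometric means and grey dashes the highest bacterial control signal of each array. The Selp probe sets 1420558_at and 1449906_at are lower on every fetal liver array, while Itga2b, Itgb3, Gp1bb, Gp5 and Gp9 are far above background in both tissues.

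P-selectin is also a product of endothelial cells. The summed signal of 15 endothelial marker genes ranged from 5362 to 6089 in fetal liver and from 3231 to 4432 in bone marrow. Of the 7 of these genes that entered the test, 4 had a change above 0 and 3 below, with a median of 0.06. Kdr and Egfl7 rose, and the sum is made higher by them: Kdr, a receptor of vascular endothelial growth factor, averaged 1090 in fetal liver and 212 in bone marrow (limma adjusted p = 0.0205), and Egfl7, a secreted endothelial factor, 1924 in fetal liver and 422 in bone marrow (limma adjusted p = 9.02e-04). The call of Kdr held in 15 of 21 alternatives (limma adjusted p up to 0.138), and that of Egfl7 in 19 of the 20 that tested its probe set. Tie1, Eng and Stab2 had changes of -0.50, -0.73 and -0.20, and none of these passed the test. Emcn was above background on no array. The part of endothelial cells in the Selp difference was not tested. The marrow arrays differed in other cell markers too. The summed signal of 17 granulocyte and monocyte genes ranged from 5005 to 7144 in fetal liver and from 46404 to 73369 in bone marrow, and that of 11 macrophage genes from 406 to 562 in fetal liver and from 2016 to 3907 in bone marrow. Of the 17 granulocyte and monocyte genes 13 entered the test, and 11 fell. Mpo, the myeloperoxidase of granulocyte precursors, averaged 3558 ± 1284 in fetal liver and 17513 ± 8052 in bone marrow (SD, n = 3 each). The part of the granulocyte, monocyte and macrophage genes in the Selp difference was not tested either. For erythroid markers the order was the other way round, with a summed signal of 12 genes between 14668 and 29331 in fetal liver and between 6118 and 11130 in bone marrow. Sums for mast cell, basophil and eosinophil genes (11) were 190 to 523 in fetal liver and 1722 to 3727 in bone marrow. Of these genes 6 entered the test, and 3 fell. Sums for lymphoid genes (12) were 479 to 589 in fetal liver and 1539 to 2421 in bone marrow. Only 3 lymphoid genes entered the test: Nkg7 and Dntt fell, with changes of -3.28 and -3.19, and Cd79b had a change of 0.42 and was not called. Hepatocyte genes (9) summed to 681 to 3742 in fetal liver and 287 to 737 in bone marrow. These sums overlapped, and of the 6 hepatocyte genes that entered the test 0 passed it. Stem cell genes (11) summed to 6520 to 7364 in fetal liver and 5591 to 7434 in bone marrow, with overlap too. Among the stem cell genes single members changed in both directions: Mecom and Hlf fell, with changes of -3.74 and -3.61 (limma adjusted p = 0.0126 and 0.00719), and Fgd5, above background on 0 of 3 marrow arrays, and Ctnnal1 rose (limma adjusted p = 0.00139 and 0.00642).

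Neither chain of integrin alphaIIbbeta3 passed the test as reported, and their measured differences had opposite signs. Itga2b (chromosome 11, 102453297 to 102469883) encodes the alphaIIb chain and has 1 probe set. Its signals were 2484, 3075 and 4056 in fetal liver and 4173, 5397 and 5185 in bone marrow. The groups did not overlap, although fetal liver replicate 3 came close to bone marrow replicate 1. The change was -0.64 ± 0.22 (SE, limma adjusted p = 0.133), with an interval of -1.13 to -0.15. With the Gapdh ratio of 5′ to 3′ probe sets as a covariate the change was -0.79 and past the threshold (adjusted p = 0.0379).

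Itgb3 (chromosome 11, 104608000 to 104670476) encodes the beta3 chain. Its brighter probe set, 1455257_at, gave 17094, 12620 and 15590 in fetal liver and 11385, 12609 and 11588 in bone marrow. All fetal liver values were higher, but fetal liver replicate 2 and bone marrow replicate 2 were nearly equal. The change was 0.34 ± 0.16 (SE, limma adjusted p = 0.259; interval -0.0058 to 0.68). Under median centring it was 0.59 (adjusted p = 0.0547), with a median change over all probe sets of 0.20 there and of -0.05 as reported.

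The dimmer Itgb3 probe set, 1421511_at, gave 535, 1093 and 1774 in fetal liver and 467, 443 and 910 in bone marrow. Here the tissues overlapped, and the change was 0.82 ± 0.45 (SE, limma adjusted p = 0.35). It was 1.28 without fetal liver replicate 1 and 0.41 without fetal liver replicate 3. The Gapdh ratio of 5′ to 3′ probe sets, which drops when RNA is degraded or copied short, was 0.109, 0.449 and 0.432 on the fetal liver arrays and 0.099, 0.177 and 0.303 on the bone marrow arrays. Both measures were lowest on the same 3 arrays, fetal liver replicate 1 and bone marrow replicates 1 and 2. With that ratio as a covariate the change of 1421511_at was 0.39, and its part in the signal was not otherwise tested.

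A ratio of both chains within an array cancels any scaling of that array. The log2 ratio of Itgb3 (1455257_at) to Itga2b was 2.78, 2.04 and 1.94 in fetal liver and 1.45, 1.22 and 1.16 in bone marrow. Its absolute level has no meaning between different probe sets, but every fetal liver array was above every marrow array. Each chain alone already separated the tissues, in opposite directions. The separation of the ratio and its permutation p were therefore fixed by the values given above, and are no further support. The ratio was higher in fetal liver by 0.98 on the log2 scale (two-sided exact permutation p = 0.1, the smallest possible; 0.4 after Benjamini-Hochberg adjustment over 4 subunit pairs). This comparison was added after the values were seen. Over 21 alternatives the difference lay between 0.37, with the Actb covariate, and 1.19, with the Gapdh covariate. The settings of filter, variance model, probe set rule, replicate block and median centring could not move it.

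**Figure D2:**
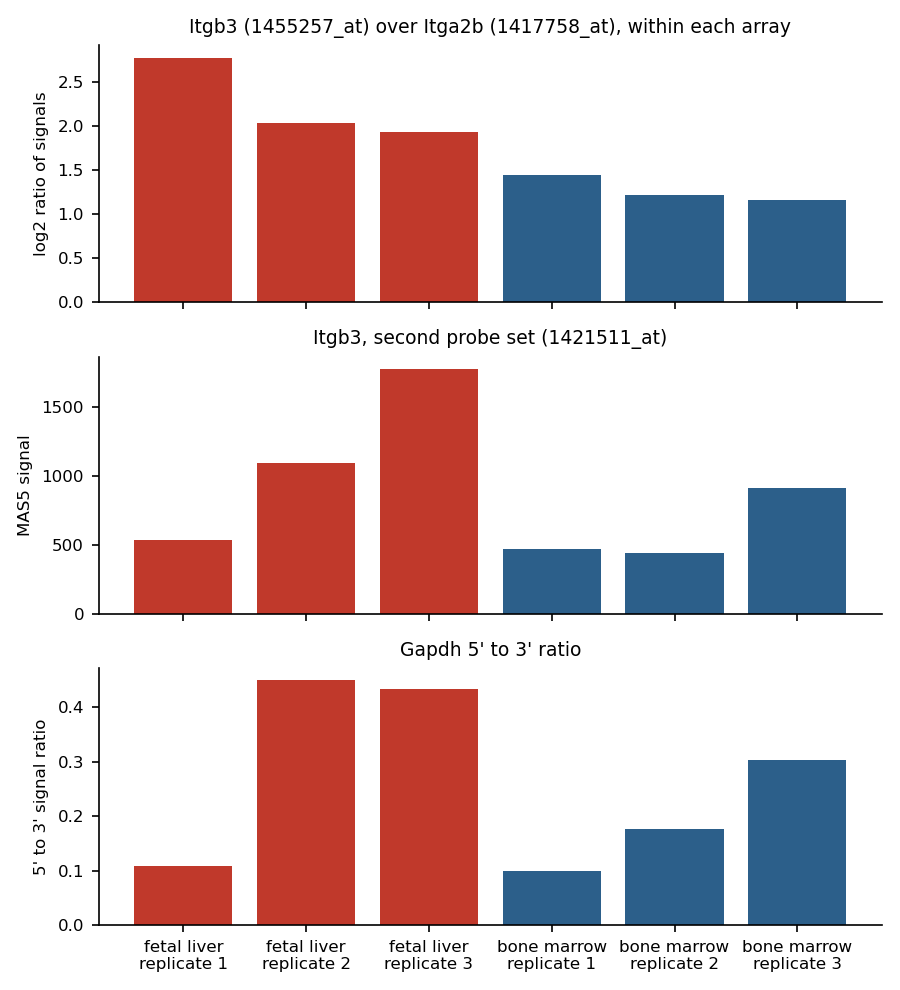
Integrin chains by array, with fetal liver (red) left of bone marrow (blue). The top panel is the log2 ratio of Itgb3 to Itga2b signals, from 1.94 to 2.78 in fetal liver and from 1.16 to 1.45 in bone marrow, the middle panel the signal of the dimmer Itgb3 probe set, and the bottom panel the Gapdh 5′ to 3′ ratio, which is low on the 3 arrays where that probe set is low.

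Within the GPIb-IX-V complex no measured subunit passed the test. Gp1bb (chromosome 16, 18620319 to 18622403) encodes the beta subunit that is disulphide linked to GPIb alpha. Its probe set 1422977_at gave 1325, 718 and 1764 in fetal liver and 1340, 2542 and 1246 in bone marrow. The tissues overlapped, with the spread inside each tissue wider than the distance between them. The change was -0.44 ± 0.38 (SE, limma adjusted p = 0.57; interval -1.27 to 0.38). It was -0.73 without fetal liver replicate 3, -0.12 without bone marrow replicate 2 and -0.0821 without fetal liver replicate 2.

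A second Gp1bb probe set, 1456427_at, gave 909, 401 and 1071 in fetal liver and 1251, 1203 and 950 in bone marrow. Fetal liver replicate 2 was again the lowest array, and the change was -0.62 ± 0.37 (SE, limma adjusted p = 0.393). Without that array it was -0.19. The probe set shared by Septin5 and Gp1bb, 1452357_at, gave 10.6, 9.76 and 28.3 in fetal liver and 74.1, 72.6 and 89.3 in bone marrow. It was not above background on any fetal liver array and above it on all marrow arrays, which puts it at least 2.48-fold lower in fetal liver (limma adjusted p = 0.0729). Septin5 lies next to Gp1bb, and which of them this signal came from cannot be told apart.

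Gp9 (chromosome 6, 87776131 to 87779786), the small subunit required for the complex to reach the surface, gave 299, 331 and 396 in fetal liver and 234, 216 and 282 in bone marrow. The tissues did not overlap, and the change was 0.48 ± 0.36 (SE, limma adjusted p = 0.517; interval -0.32 to 1.28). Gp5 (chromosome 16, 30307685 to 30310781), the loosely bound subunit that thrombin cleaves, gave 387, 182 and 624 in fetal liver and 210, 481 and 357 in bone marrow. Its tissues overlapped throughout. The change was 0.10 ± 0.50 (SE, limma adjusted p = 0.946; interval -1.01 to 1.2), and its sign depended on single arrays: it was -0.31 without fetal liver replicate 3 and -0.23 without bone marrow replicate 1. Fetal liver replicate 2 was the lowest fetal liver array for Gp5 and for both Gp1bb probe sets, but not for Gp9.

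Ratios of the subunits within an array overlapped between tissues for Gp9 to Gp1bb, Gp5 to Gp1bb and Gp9 to Gp5. The log2 ratio of Gp9 to Gp1bb (1422977_at) averaged -1.80 ± 0.60 in fetal liver and -2.72 ± 0.73 in bone marrow (SD, n = 3 each; exact permutation p = 0.3). That of Gp5 to Gp1bb averaged -1.74 ± 0.23 in fetal liver and -2.28 ± 0.44 in bone marrow (exact permutation p = 0.2), and that of Gp9 to Gp5 averaged -0.06 ± 0.80 in fetal liver and -0.44 ± 0.65 in bone marrow (exact permutation p = 0.7). These intervals and p-values do not show that the subunits were expressed alike in both tissues.

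Gp6 (chromosome 7, 4362853 to 4397851), the collagen receptor, lay below the filter and did not enter the test. Its signals were 23.1, 39.1 and 47.1 in fetal liver and 23.4, 5.74 and 9.24 in bone marrow. It was above background on 2 of 3 fetal liver arrays and on 0 of 3 marrow arrays. The tissues overlapped, since fetal liver replicate 1 and bone marrow replicate 1 were nearly equal and both under background, so no fold is given. With no filter on dim probe sets it did not pass the test (limma adjusted p = 0.395).

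**Figure D3:**
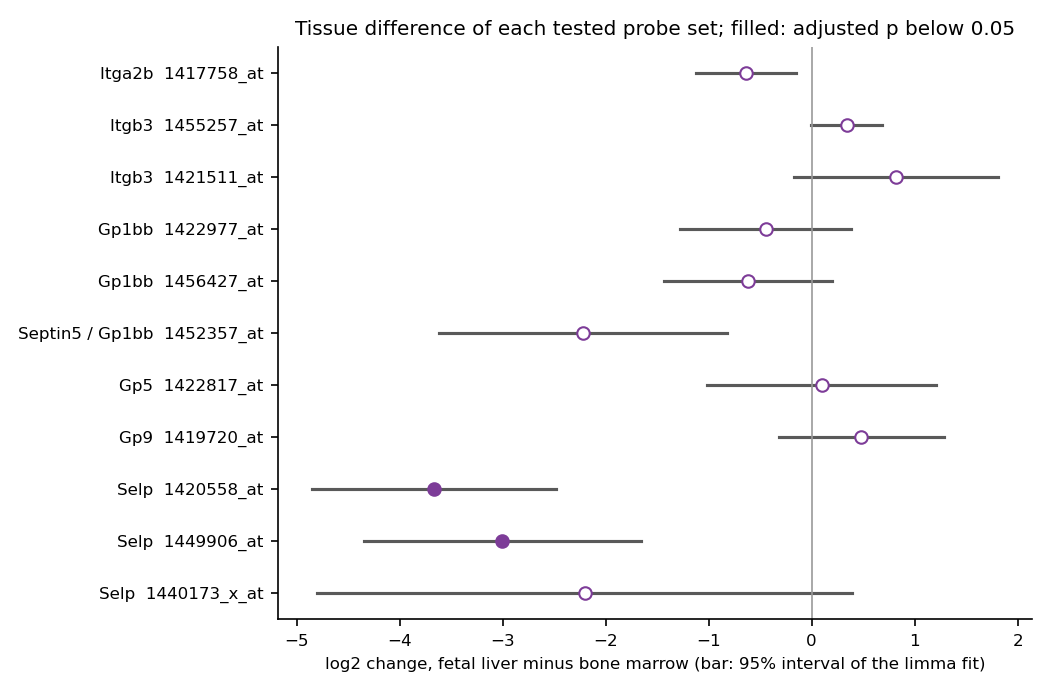
Log2 change, fetal liver minus bone marrow, of each tested probe set with its 95% interval from limma, with filled points for an adjusted p below 0.05. The shared Septin5 and Gp1bb probe set was under background on every fetal liver array, so its fitted value is no measured difference. The intervals of Selp 1420558_at (-4.85 to -2.48), Selp 1449906_at, Itga2b and the shared Septin5 and Gp1bb probe set lie below 0.

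Of the 10 tested receptor probe sets, 5 had tissues that did not overlap, 2 of them higher in fetal liver (Itgb3 1455257_at and Gp9) and 3 lower (Itga2b and both called Selp probe sets). Over all probe sets tested, 25.5% did not overlap, 11.1% higher and 14.4% lower. The plot of changes by processing sets the brightest probe set of each gene under the reported and the 21 other settings side by side.

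**Figure D4:**
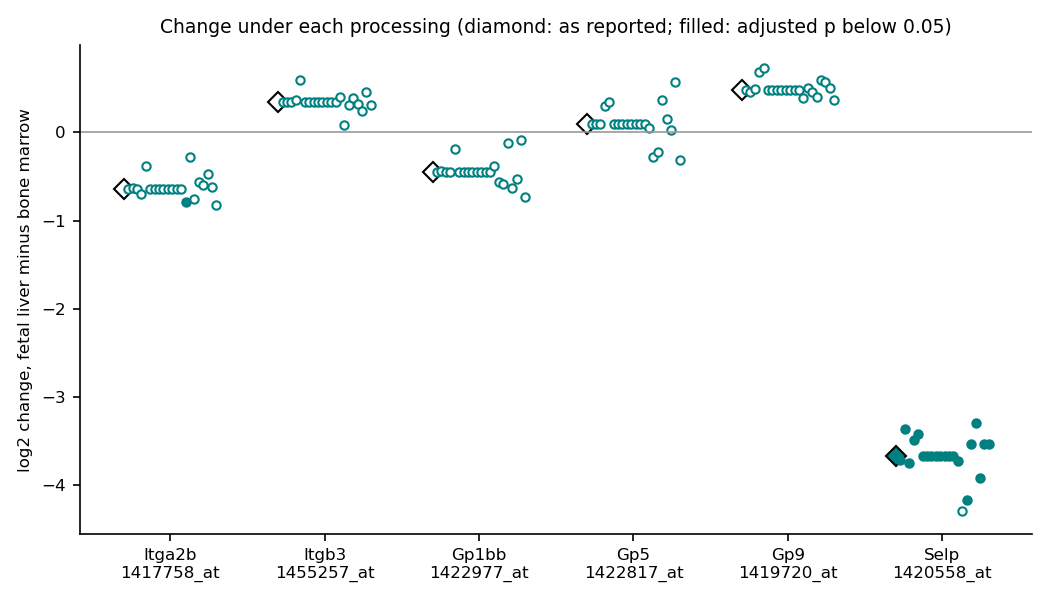
Log2 change of the brightest probe set of each receptor gene under the reported processing (diamond) and 21 alternatives (circles), filled where the adjusted p was below 0.05. Selp stays between -4.29 and -3.30, while Gp5 moves across 0, between -0.31 and 0.57.

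The genes whose profiles over the 6 arrays were most like those of the receptors were found by the root mean square difference of centred log2 signals, among 18609 probe sets above background on all arrays. For Selp these were Irf8, an interferon regulatory factor of monocyte development (difference 0.35, against a standard deviation of 1.92 for Selp itself), and Csgalnact1, an enzyme of chondroitin sulphate synthesis (0.40). Both fell, with log2 changes of -3.91 and -3.61 (limma adjusted p = 0.00213 and 0.0027). Their fall follows from their choice by likeness to Selp and is no separate support. For Itga2b they were Bpnt2 and Nin (0.057 and 0.06), for Itgb3 Tlcd1 and Ndufc2 (0.053 and 0.059) and for Gp9 Med4 and Pmpcb (0.055 and 0.079). For Gp1bb they were Cdc42ep5 and Ranbp17 (0.113 and 0.171) and for Gp5 Phf20 and Gpsm1 (0.183 and 0.205). This likeness, over 6 arrays and many candidates, is a description only.

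Around the receptors, 160 further genes on 8 lists were examined, of which 142 entered the test by their brightest probe set. In fetal liver 10 rose and 8 fell, 7.04% and 5.63% of the 142, with a median change of 0.03. Over all 11625 genes with a tested probe set, 2.26% rose and 4.09% fell, with a median of 0.01. The lists were written from general knowledge with earlier results of these data known.

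Of 20 other platelet adhesion receptors tested, 1 rose and 2 fell, and the median change was -0.06. Clec1b, which encodes the podoplanin receptor CLEC-2, averaged 1938 ± 500 in fetal liver and 765 ± 144 in bone marrow (SD, n = 3 each), a change of 1.32 ± 0.28 (SE, limma adjusted p = 0.0238). Esam, a junctional adhesion molecule of endothelium and platelets, averaged 288 ± 117 in fetal liver and 825 ± 178 in bone marrow (limma adjusted p = 0.0423). Cd47, a receptor for thrombospondin, averaged 11440 ± 1287 in fetal liver and 18119 ± 670 in bone marrow (limma adjusted p = 0.0234), but was not past the threshold under median centring (adjusted p = 0.112), nor was Esam (adjusted p = 0.07). The call of Clec1b was lost without fetal liver replicate 1 or 3 or bone marrow replicate 1 or 2 (adjusted p = 0.06 to 0.124). Those of Esam and Cd47 were lost without fetal liver replicate 2 or 3 or any 1 bone marrow array (adjusted p = 0.0538 to 0.17 for Esam and 0.0579 to 0.134 for Cd47). Without a trend in the variance Clec1b, Esam and Cd47 were no longer past the threshold (adjusted p = 0.0899, 0.0931 and 0.221). Esam was lost further under quantile normalization (0.0777), with no filter (0.0528) and with the Gapdh covariate (0.0576), and so kept its call in 10 of 21 alternatives.

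Of 9 ligands of the receptors tested, 2 rose and 0 fell, and the median change was 0.48. Thbs1, the thrombospondin of alpha granules, averaged 5234 ± 881 in fetal liver and 197 ± 58.9 in bone marrow (SD, n = 3 each), a change of 4.74 ± 0.29 (SE, limma adjusted p = 3.1e-05). Podxl, a sialomucin of endothelium and progenitors that selectins can bind, averaged 2050 ± 617 in fetal liver and 177 ± 75.3 in bone marrow (limma adjusted p = 7.88e-04). The ligand of GPIb, von Willebrand factor (Vwf), averaged 3488 in fetal liver and 4591 in bone marrow, a change of -0.40 ± 0.21 (SE, limma adjusted p = 0.332). Selplg, the leukocyte ligand of P-selectin known as PSGL-1, averaged 126 in fetal liver and 489 in bone marrow, a change of -1.82 ± 0.47 (SE, limma adjusted p = 0.053). Vwf and Selplg were named after their values were seen. The fibrinogen genes Fga, Fgb and Fgg were below the filter.

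Genes that carry the signals of the receptors mostly did not pass the test. Of 21 genes of signalling by GPVI and CLEC-2, 0 rose and 1 fell, with a median of 0.10. This was Pik3r1, a regulatory subunit of phosphoinositide 3-kinase, at 2192 ± 235 in fetal liver and 3755 ± 384 in bone marrow (SD, n = 3 each, limma adjusted p = 0.0474), a call lost without any 1 of the 6 arrays (adjusted p = 0.0673 to 0.188) and under median centring (adjusted p = 0.15). It was lost further without a trend in the variance (0.177), with no filter (0.0696) and with a filter at the 20th percentile (0.0566), and so kept its call in 10 of 21 alternatives. Of 23 genes of integrin activation and outside-in signalling, 2 rose and 0 fell, with a median of 0.09. Src, the kinase bound to the beta3 tail, averaged 2120 ± 434 in fetal liver and 163 ± 59.6 in bone marrow, a change of 3.73 ± 0.37 (SE, limma adjusted p = 3.25e-04). Dok2, an adaptor of tyrosine kinase signalling, averaged 935 ± 206 in fetal liver and 346 ± 52.3 in bone marrow (limma adjusted p = 0.0287). The Dok2 call was lost without fetal liver replicate 2 or 3 or bone marrow replicate 1 or 2 (adjusted p = 0.0572 to 0.156) and without a trend in the variance (0.0641).

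Of 11 cytoskeletal and adaptor partners of GPIb, 0 rose and 1 fell. This was Gsn, which encodes the actin severing protein gelsolin, at 267 ± 161 in fetal liver and 1034 ± 146 in bone marrow (SD, n = 3 each, limma adjusted p = 0.0175). The call was lost without fetal liver replicate 2 or 3 or bone marrow replicate 1 or 3 (adjusted p = 0.0534 to 0.073) and without a trend in the variance (0.0673). Of 6 enzymes of receptor shedding and their inhibitors, 0 rose and 0 fell in limma, and the smallest adjusted p-values were those of Timp3, an inhibitor of ADAM17 (change 0.85 ± 0.25, SE, adjusted p = 0.0838), and Capn2, a calpain (0.69 ± 0.30, adjusted p = 0.226). Timp3 was past the threshold under median centring (adjusted p = 0.0256), with the Gapdh covariate (0.0314), with the replicate number as a block (0.0253) and without bone marrow replicate 1 (0.0481).

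Among 23 genes on the list of transcription factors of megakaryocyte receptor genes, 1 rose and 1 fell, with a median of -0.18. Action of these factors on the receptor genes was not tested. Klf1, the erythroid factor, averaged 1693 ± 391 in fetal liver and 312 ± 47.5 in bone marrow (SD, n = 3 each, limma adjusted p = 0.00127). Erg, an ETS factor, averaged 1104 ± 486 in fetal liver and 3720 ± 1030 in bone marrow (limma adjusted p = 0.0112), and was not past the threshold without fetal liver replicate 3 (adjusted p = 0.05003) or without a trend in the variance (adjusted p = 0.0765). Gata1 and Fli1, named after their values were seen, had log2 differences of 0.95 ± 0.30 and -0.29 ± 0.20 (SE, limma adjusted p = 0.1 and 0.481).

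Of 33 other megakaryocyte genes tested, 6 rose and 3 fell, with a median of -0.02, and 5 of the 37 listed genes stand in another list too. Tubb1, the tubulin of the platelet marginal band, averaged 2772 ± 373 in fetal liver and 118 ± 115 in bone marrow (SD, n = 3 each, limma adjusted p = 0.0022). Ptgir, the prostacyclin receptor, was above background on 0 of 3 marrow arrays and at least 3.62-fold higher in fetal liver (limma adjusted p = 0.024; not past the threshold without bone marrow replicate 1, with no filter or with the Gapdh covariate, adjusted p = 0.0559, 0.0522 and 0.0505). F13a1, the A chain of coagulation factor XIII, averaged 161 ± 50.2 in fetal liver and 986 ± 815 in bone marrow (limma adjusted p = 0.0303), and its call was lost without any 1 fetal liver array or bone marrow replicate 3 (adjusted p = 0.058 to 0.117) and without a trend in the variance (0.0933). With the Actb covariate, Thbs1 alone of the 18 called genes on these lists stayed past the threshold.

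**Figure D5:**
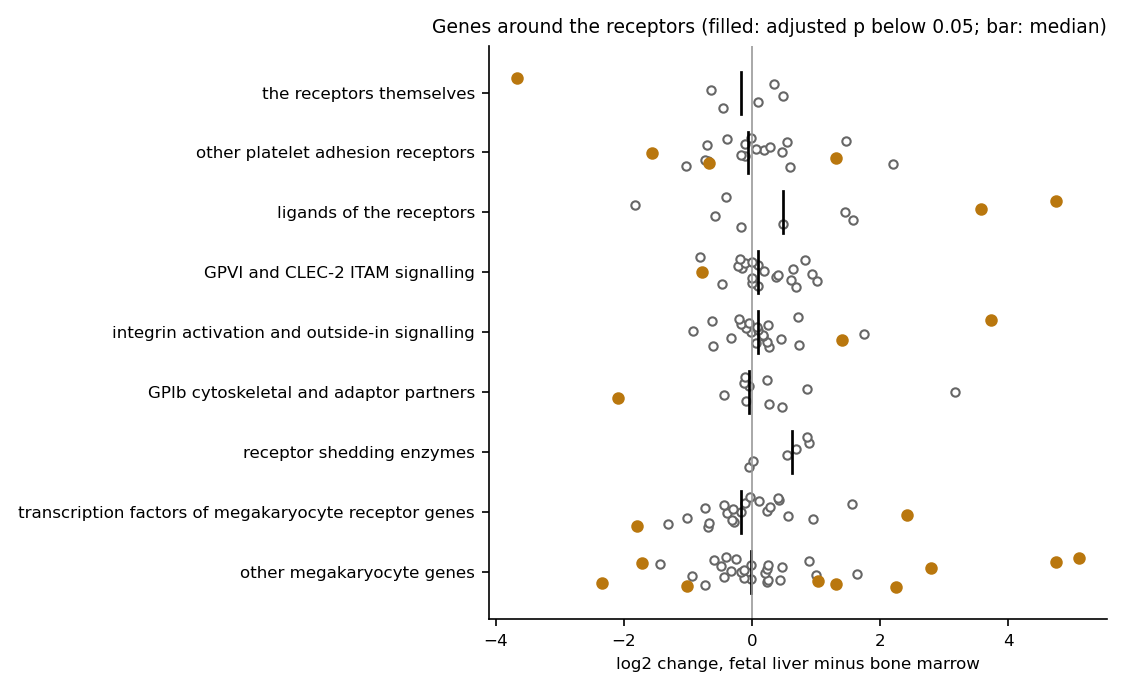
Log2 change, fetal liver minus bone marrow, of each tested gene of the receptors themselves and of 8 lists around them, with filled points for an adjusted p below 0.05 and bars at list medians. Most genes lie near 0, and the called genes at the far right are Thbs1, Podxl, Src and Tubb1, opposite to Selp at -3.66.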

How the data were processed

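The values the authors deposited are intensity signals of probe sets, linear and not log transformed. Per the submitters' processing notes they come from MAS5; its version, scaling target and filters: not given in the sources used here. On every array the mean after trimming 2% at each end was 500, so arrays had been scaled before deposit. No pair of arrays shared a signal. Of 45101 probe sets 64 were controls. Signals were taken as log2(signal + 2.87), the 10th percentile of all signals, so changes of dim genes are understated. The 27022 probe sets above the 40th percentile of mean log2 signal were fitted in limma 3.58.1 (R 4.3.3; lmFit, eBayes with trend), fetal liver minus bone marrow, with Benjamini-Hochberg adjustment over all of them and a threshold of 0.05. On lists, a gene stands by its brightest tested probe set. A fold written "at least" sets the brighter mean against the higher of own and highest control signal. Array measures and ratios had two-sided exact permutation tests (SciPy 1.17.1). The code was tested on simulated data. The number of arrays limits precision.

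Gene names came from the platform annotation (34945 probe sets with 1 symbol, 932 with several); promoters and positions are RefSeq, GRCm38.p6. The receptors and lists were chosen with earlier results of these data known. Named were all receptor probe sets, up to 4 genes past the threshold with the largest change per list or else the 2 with the smallest p, the nearest 2 profiles, and the sort antigens Kit and Slamf1; Ly6a was not analysed here. Alternatives covered offset, floor, normalization, filter, variance model, probe set rule, replicate block, 5′ to 3′ covariates and each array left out.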

Additional observations from a re-analysis of the deposited data

How the results depend on the processing

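The fall of Selp 1420558_at kept its direction under all 21 alternatives and its side of the threshold in 20, the exception being the Actb covariate (-4.29, adjusted p = 0.135). The settings of filter, variance model, probe set rule and replicate block could move only its adjusted p. They leave the estimated change as it is, so its direction was fixed there. With 482 probe sets higher and 886 lower in fetal liver as reported, median centring gave 1291 higher and 701 lower, no variance trend 195 and 526, and the Actb covariate 16 and 58. Leaving out 1 array gave 140 to 455 higher and 477 to 689 lower, with 251 higher without fetal liver replicate 1, and 140 higher without fetal liver replicate 2 and likewise without replicate 3. Receptor genes called lower numbered 1 as reported, 2 with the Gapdh covariate, where Itga2b joined Selp (-0.79, adjusted p = 0.0379), and 0 with the Actb covariate. Genes on the 8 lists numbered 10 higher and 8 lower as reported, 22 and 5 under median centring, 1 and 0 with the Actb covariate, 12 and 13 with the Gapdh covariate, 7 and 1 without a variance trend, and 6 to 11 higher and 2 to 6 lower with 1 array left out. Gp5 1422817_at, at 0.10 as reported, was -0.28 with the Actb covariate and -0.31 to 0.57 with 1 array left out. Among markers, Cd79b, at 0.42 as reported, was -0.73 with the Actb covariate and -0.21 to 0.88 with 1 array left out, and Tek, at 0.06, was -0.0397 to 0.20. Fits with fewer arrays have fewer samples; for the other changes the cause was not tested. With the replicate number as a block, 717 probe sets were higher and 1077 lower, 19 and 11 genes of the lists were called, and Itga2b 1417758_at had an adjusted p of 0.0546. Whether the numbers pair the arrays cannot be told from these values. Deviations from the tissue means correlated at 0.123, -0.018 and 0.096 between same-numbered arrays and at -0.150 to 0.091 between the others. Fetal liver replicate 2 correlated best with bone marrow replicate 3 (0.091). Signals near the bacterial controls, as for Gp6, give bounds only, and 3 arrays a tissue limit the precision.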
